A study of Mus musculus with 6 samples.

Results

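The 50 genes described here encode the machinery that builds the mitotic spindle, holds and separates the sister chromatids and divides the cell, and they were followed in macrophages grown from bone marrow of mice without or with the gene for cadherin-11, a cell adhesion protein. They were chosen by a list of symbols, with no measured value in the rule, and each symbol matched 1 of the 42256 genes in the deposited count table. The list was made with earlier results of these data known, so counts over it describe these libraries and are not an independent test. Every one of the 50 passed the filter on low counts, beside 12862 genes tested in all, and the lowest count of any of them in a library was 11, for Cdc25c. The 3 KO libraries came from CDH11-/- mice and the 3 WT libraries from CDH11+/+ mice. All donors were adult males of a mixed 129S1/Sv x C57BL/6 background. Marrow cells of both genotypes were kept for 7 days in non-adherent dishes in RPMI with 20% L929-conditioned medium and 10% FBS, and total RNA was sequenced with no further treatment. The submitters' design text names 4 CDH11-/- and 3 WT animals, but the labels do not tie a library to an animal. The p-values below therefore measure the spread between these 6 libraries, which may in part be technical. Levels are counts per 1000000 of the scaled library (CPM), and a gene is called where edgeR's quasi-likelihood test of KO against WT gave a Benjamini-Hochberg adjusted p under 0.05 over all 12862 genes.

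Cdk1 bound to a B-type cyclin drives a cell into mitosis. The spindle checkpoint holds it there until every kinetochore is attached, and the anaphase-promoting complex then marks securin and cyclin B for destruction so that separase can part the chromatids. Genes of this kind are switched off together in resting cells, where the DREAM complex sits at their promoters through the CHR element (cell cycle genes homology region), and are switched on late in the cycle by MuvB with B-MYB and FOXM1. NF-Y binds CCAAT boxes in many of the same promoters, while E2F sites are typical of genes used for DNA replication. Marrow progenitors divide in medium that holds macrophage colony-stimulating factor, which L929 cells release, and most leave the cycle as they mature into macrophages.

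The promoter letters that many of these genes share are shown in 8 windows, each from 120 bases before the gene start to 30 after it, with the CHR element (TTTGAA or TTCGAA) and CCAAT in capitals on either strand. TTCAAA and ATTGG are these motifs read on the other strand. Spc25 (chr2:69206184-69206333 on the minus strand) and Ube2c (chr2:164769809-164769958 on the plus strand) are shown because both were called higher in KO macrophages. Bub3 (chr7:131560250-131560399 on the plus strand) was the called gene with the smallest fold, and Cenpa (chr5:30666766-30666915 on the plus strand) had the lowest log2 fold change of the 50. Cdk1 (chr10:69352883-69353032 on the minus strand), Ccnb2 (chr9:70421525-70421674 on the minus strand) and Kif23 (chr9:61946770-61946919 on the minus strand) were not called. Mad2l1 (chr6:66535101-66535250 on the plus strand) was called and holds neither motif in the window. All are RefSeq gene starts on GRCm38.p6. In the GENCODE M21 annotation Mad2l1 starts at base 66535390, past the end of its window, so its lack of motifs depends on the start used.
Spc25: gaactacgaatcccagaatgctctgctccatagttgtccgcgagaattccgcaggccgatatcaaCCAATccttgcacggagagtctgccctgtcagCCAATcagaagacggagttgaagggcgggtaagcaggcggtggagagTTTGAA
Ube2c: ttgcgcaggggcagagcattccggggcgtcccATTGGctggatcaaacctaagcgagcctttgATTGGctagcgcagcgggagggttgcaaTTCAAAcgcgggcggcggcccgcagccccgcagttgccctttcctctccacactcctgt
Bub3: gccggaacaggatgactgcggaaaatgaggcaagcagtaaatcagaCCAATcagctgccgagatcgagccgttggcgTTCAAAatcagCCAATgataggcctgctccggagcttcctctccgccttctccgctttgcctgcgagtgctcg
Cdk1: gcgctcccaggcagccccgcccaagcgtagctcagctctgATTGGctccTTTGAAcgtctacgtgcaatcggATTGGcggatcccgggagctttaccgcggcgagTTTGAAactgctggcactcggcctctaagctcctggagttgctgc
Ccnb2: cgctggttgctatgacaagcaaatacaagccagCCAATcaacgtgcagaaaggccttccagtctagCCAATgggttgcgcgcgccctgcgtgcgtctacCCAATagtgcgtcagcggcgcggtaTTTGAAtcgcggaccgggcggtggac
Kif23: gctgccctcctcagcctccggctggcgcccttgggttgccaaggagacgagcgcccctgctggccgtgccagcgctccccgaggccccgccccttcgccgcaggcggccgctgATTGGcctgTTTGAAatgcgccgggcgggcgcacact
Cenpa: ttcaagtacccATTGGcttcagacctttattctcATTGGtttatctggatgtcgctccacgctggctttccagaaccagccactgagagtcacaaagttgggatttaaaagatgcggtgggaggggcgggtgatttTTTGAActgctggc
Mad2l1: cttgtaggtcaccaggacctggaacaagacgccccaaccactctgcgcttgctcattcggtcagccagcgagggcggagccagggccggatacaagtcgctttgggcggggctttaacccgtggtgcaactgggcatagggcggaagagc

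In the RefSeq windows of 250 bases before to 50 bases after each gene start, 41 of the 50 genes had an entry. Ccna2, Cdc25c, Foxm1, Tpx2, Spc24, Aurkb, Incenp, Kif20a and Smc4 had none. A CHR element lay in 34 of the 41 (82.9%), against 21.7% of all 27025 genes in the same windows. It began no more than 50 bases before the start, or after the start, in 31 of the 41 (75.6%), against 6.12% of all genes. CCAAT was found in 32 of the 41 (78.0%) and in 41.1% of all genes, and both motifs in 30 of the 41 (73.2%) and in 8.61% of all genes. CCAAT and the CHR element can share 1 base at their ends, and TTCGAA is its own reverse complement. Birc5, Ccnb1, Cenpe, Mad2l1, Ncaph, Nuf2 and Pttg1 had no CHR element in these windows.

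The CHR element was present in 8 of the 11 called genes with a window and in 26 of the 30 others. An E2F motif (TTT, then 2 bases that are each G or C, then CGC, on either strand) was in 3 of the 41 windows (7.32%), against 2.60% of all genes. In 37 DNA replication genes with a window the E2F motif was in 16 (43.2%), CCAAT in 23 (62.2%) and the CHR element in 7 (18.9%). Among 59 further mitotic genes with a window, the CHR element was in 34 (57.6%) and the E2F motif in 9 (15.3%). CCAAT was not particular to the mitosis genes. It was in 12 of 14 Cdk inhibitor and p53 target genes with a window (85.7%), and in 37.5 to 66.1% of each other compared list. A match of letters shows no binding, and no protein binding was measured.

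**Figure D1:**
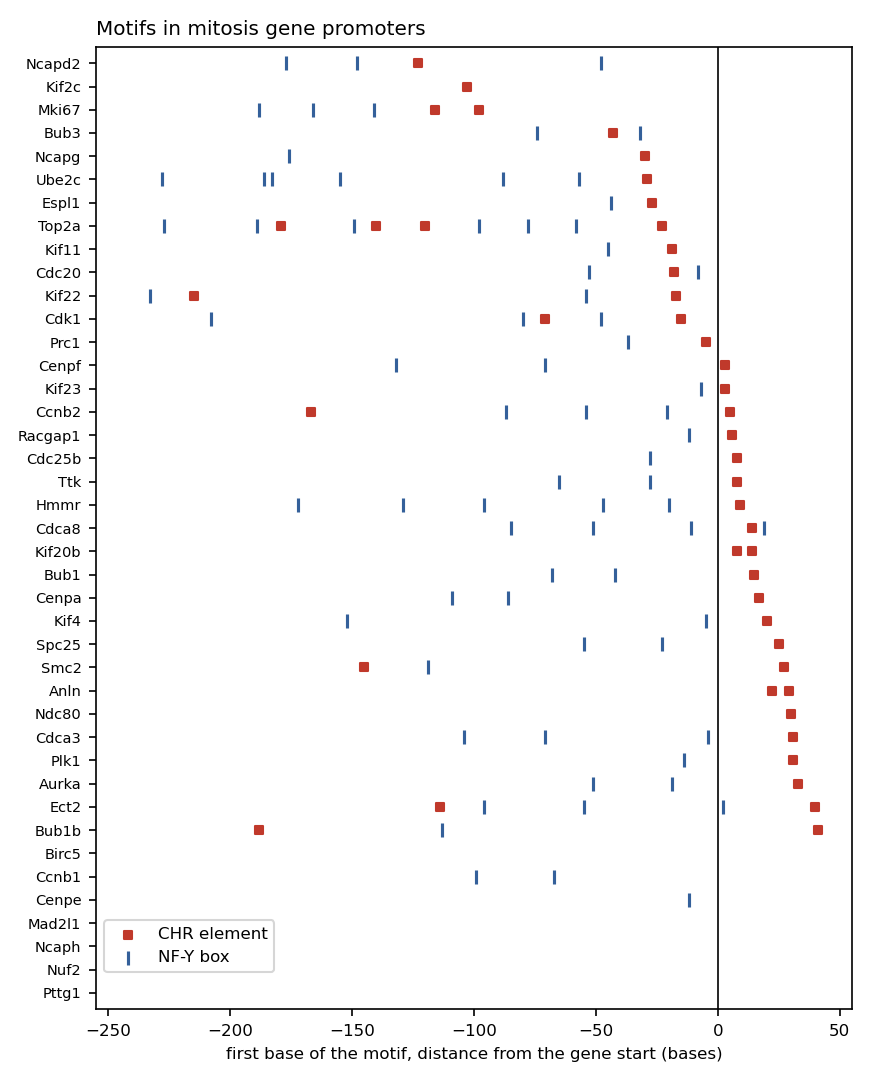
First base of each CHR element (red squares) and CCAAT box (blue bars) relative to the gene start, in bases, for the first listed window of the 41 mitosis genes with an entry, 1 gene a row. In 31 of the 41 genes a CHR element begins no more than 50 bases before the start or after it, and most CCAAT boxes lie before it.

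Most of the 50 genes had higher mean levels in KO than in WT macrophages. The log2 fold change of KO over WT was positive for 49, with a median of 0.97 and a range of −0.12 to 1.29, beside a median of 0.0014 over all genes tested. Yet 13 of the 50 (26.0%) were called higher, where 18.5% of all genes tested were called higher and 35.2% were called in either direction. By this test the share called among the mitosis genes was near that of all genes, whereas DESeq2 called 31 of the 50 higher (17.5% of all genes) and limma-voom 35 of the 50 (18.7% of all genes). The 13 were Aurka and Tpx2 of spindle assembly, Bub3, Mad2l1 and Ttk of the spindle checkpoint, Birc5 and Cdca8 of the chromosomal passenger complex, Ube2c and Pttg1 of the ubiquitin ligase and separase step, Spc24 and Spc25 of the kinetochore, and Smc2 and Ncapg of condensin. No mitosis gene was called lower by edgeR, by DESeq2 or by limma-voom, and none was lower at an unadjusted p under 0.05. At an unadjusted p under 0.05, 36 of the 50 were higher, against 24.9% of all genes tested. The adjusted p of 23 genes lay between 0.05 and 0.1, so that the threshold runs through the middle of the list: 0.0498 for Cdca8, the last gene called, and 0.0505 for Nuf2, the next.

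The libraries of each genotype differed widely in these genes. The SD of log2 CPM within a genotype had a median of 0.53 over the 50 genes and 0.12 over all genes tested, and it was above that median of all genes in 49 of the 50. The median standard error of the log2 fold change was 0.35 for the mitosis genes and 0.10 for all genes. Among the KO libraries, KO 2 was the highest for 49 of the 50 genes and KO 1 the lowest for 48. Among the WT libraries, WT 3 was the highest and WT 2 the lowest for all 50. The whole order, KO 2 above KO 3 above KO 1 and WT 3 above WT 1 above WT 2, held for 48 of the 50 genes and for 8.76% of all genes tested.

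Summed over the 50 genes, the libraries held 1376, 2137 and 1551 CPM in KO 1 to KO 3 and 953, 712 and 1375 CPM in WT 1 to WT 3. KO 1 and WT 3 were thus level, and the genotypes met at that point. The sums averaged 1688 ± 399 CPM in KO and 1013 ± 335 CPM in WT (SD, n = 3 each), a ratio of 1.67. Within a genotype the spread was of the same size: WT 3 had 1.93 times the sum of WT 2, and KO 2 had 1.55 times the sum of KO 1. The 50 genes took 0.138, 0.214 and 0.155% of the scaled library in KO 1 to KO 3 and 0.0953, 0.0712 and 0.137% in WT 1 to WT 3. In RNA from a whole dish, more dividing cells and more of this RNA per dividing cell cannot be told apart.

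**Figure D2:**
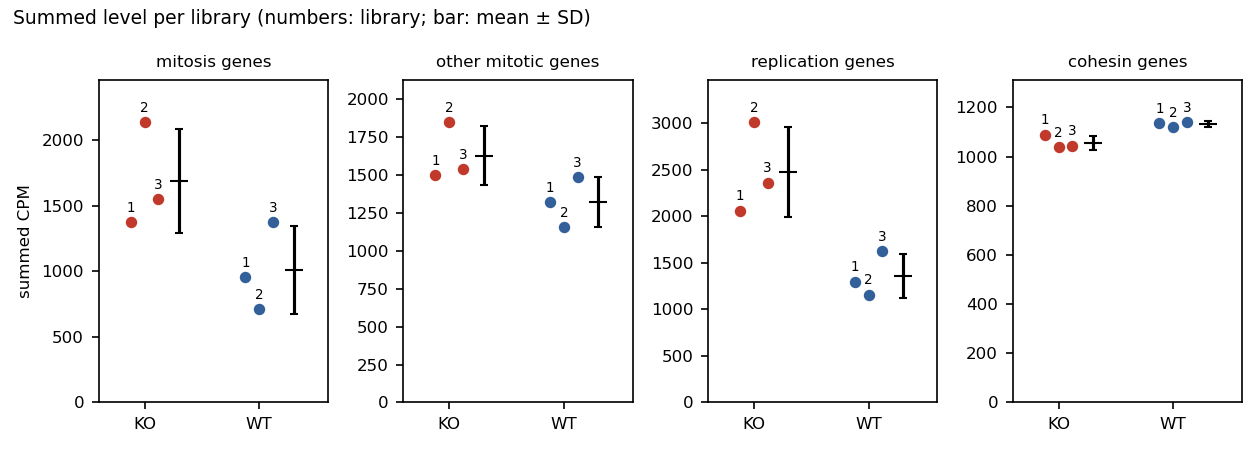
Summed CPM by library for the 50 mitosis genes, 72 other mitotic genes, 48 DNA replication genes and 13 cohesin genes, with 1 numbered point a library, KO left of WT, and bars for the mean ± SD (n = 3 each). The mitosis sums are 1376, 2137 and 1551 in KO and 953, 712 and 1375 in WT, so that KO 1 and WT 3 coincide, while the lowest KO sum for replication (2057) lies above the highest WT sum (1624).

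KO 2 was the highest of all 6 libraries for 49 of the 50 genes, which held for 30.4% of all genes tested. WT 2 was the lowest of all 6 for every one of the 50, which held for 22.8% of all genes tested. KO 1 was above WT 3 for 31 of the 50 genes (50.1% of all genes tested). KO 3 was above WT 3 for 44 (50.4% of all genes tested). The 3 KO libraries lay above the 3 WT libraries, with no overlap, for 31 genes, where 27.0% of all genes tested did so. Against the mean of the 6 libraries on the log2 scale, the median gene stood at 0.18, 0.95 and 0.42 in KO 1 to KO 3 and at −0.52, −1.13 and 0.11 in WT 1 to WT 3.

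**Figure D3:**
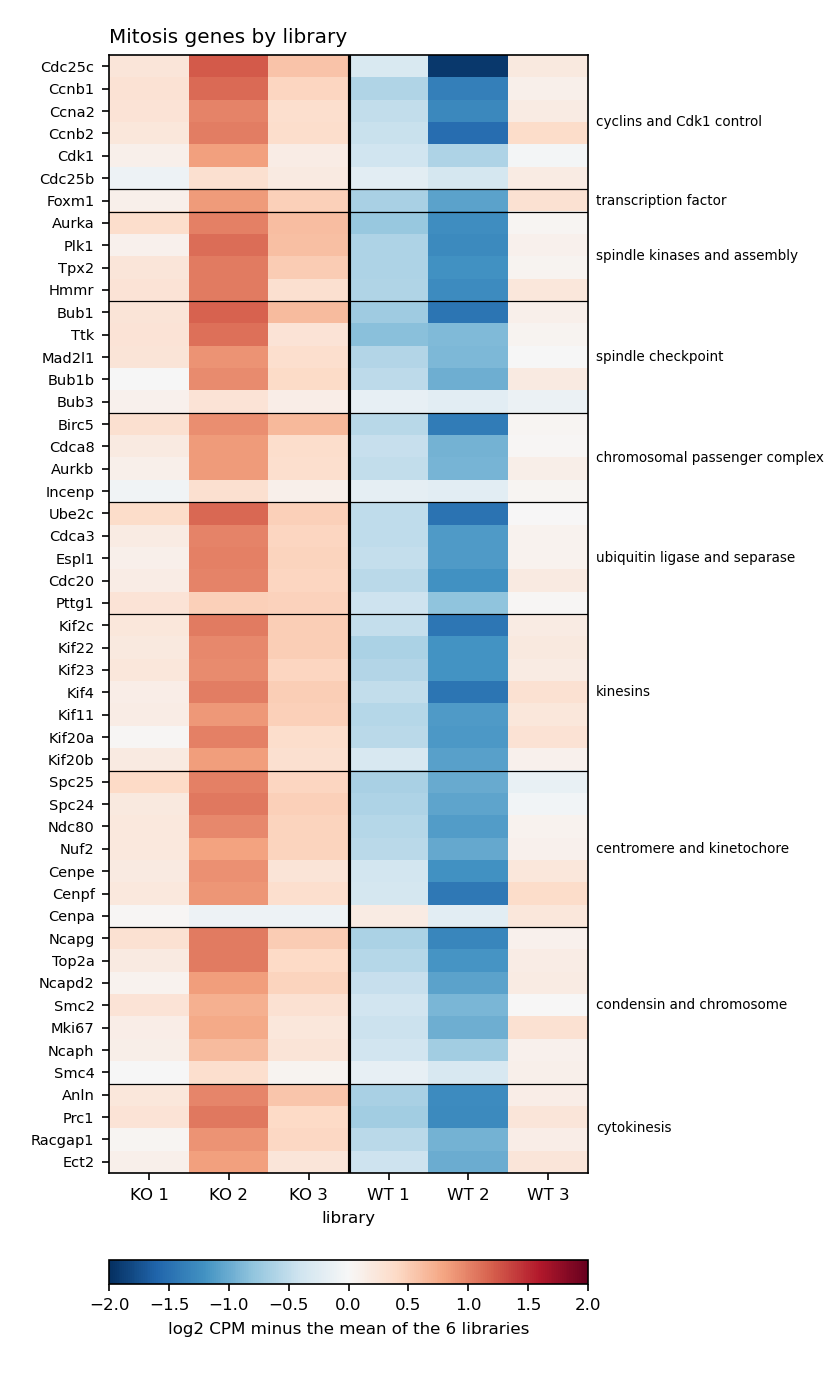
Log2 CPM of each of the 50 mitosis genes in each library, minus the mean of that gene over the 6 libraries, with genes grouped by role and KO libraries left of WT libraries. Nearly every row is highest in KO 2 and lowest in WT 2, and Bub3, Incenp, Smc4, Cdc25b and Cenpa are paler than the rest.

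Of the cyclins, Cdk1 and the phosphatases that release it, none of the 6 genes (Ccna2, Ccnb1, Ccnb2, Cdc25b, Cdc25c and Cdk1) was called by edgeR. Of these, 3 were higher at an unadjusted p under 0.05 (24.9% of all genes tested). DESeq2 called 2 higher (17.5%) and limma-voom called 3 (18.7%). Cdk1, the kinase that drives entry into mitosis (chr10:69335146-69352938, minus strand, GRCm38), had 28.6, 47.5 and 29.8 CPM in KO 1 to KO 3, against 20.3, 17.4 and 26.03 CPM in WT 1 to WT 3. All 3 KO libraries were above all 3 WT libraries, KO 2 standing apart, and the log2 fold change was 0.73 (SE 0.24, adjusted p = 0.0568). Ccnb1, its main cyclin partner, had 24.7, 44.1 and 27.1 CPM in KO 1 to KO 3, against 13.3, 7.77 and 21.6 CPM in WT 1 to WT 3. The genotypes again did not overlap, and its log2 fold change was 1.17 (SE 0.39, adjusted p = 0.0616).

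Ccnb2, another B-type cyclin, had 16.3, 28.1 and 17.8 CPM in KO 1 to KO 3, against 10.2, 4.83 and 17.8 CPM in WT 1 to WT 3. WT 3 lay above KO 1 here, and WT 2 was well below every other library; the log2 fold change was 0.92 (SE 0.46, adjusted p = 0.160). Cdc25c, a phosphatase that removes the inhibitory phosphates of Cdk1, was the lowest of the 50 per length, with 0.556 CPM per kb in KO and 0.243 CPM per kb in WT. It had 1.93, 3.84 and 2.43 CPM in KO 1 to KO 3, against 1.31, 0.415 and 1.86 CPM in WT 1 to WT 3, and its log2 fold change of 1.18 had an SE of 0.49 and an adjusted p of 0.104. The group ran from 0.26 to 1.18 in log2 fold change. Foxm1, the transcription factor that switches on many of these genes, had 15.8, 26.6 and 20.6 CPM in KO 1 to KO 3, against 9.38, 7.06 and 18.2 CPM in WT 1 to WT 3. WT 3 was above KO 1, and its log2 fold change was 0.86 (SE 0.37, adjusted p = 0.114). Foxm1 was higher at adjusted p under 0.05 by DESeq2 and not by limma-voom.

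Among the spindle kinases and assembly factors (Aurka, Hmmr, Plk1 and Tpx2), 2 of 4 were called higher (18.5% of all genes tested). All 4 had KO libraries above WT libraries with no overlap, as did 27.0% of all genes tested. Aurka (chr2:172356190-172370535, minus strand), the Aurora A kinase of centrosome maturation and bipolar spindle assembly, had 12.99, 20.6 and 15.7 CPM in KO 1 to KO 3, against 6.05, 4.30 and 10.5 CPM in WT 1 to WT 3. The lowest KO library was KO 1 and the highest WT library was WT 3, and the log2 fold change was 1.24 (SE 0.34, adjusted p = 0.0336). Tpx2, which activates Aurora A on spindle microtubules, had 33.6, 58.2 and 40.5 CPM in KO 1 to KO 3, against 18.5, 12.2 and 29.6 CPM in WT 1 to WT 3, with a log2 fold change of 1.13 (SE 0.35, adjusted p = 0.0471).

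Plk1, the polo-like kinase that acts from centrosome separation to cytokinesis, showed a fold of the same size and was not called. It had 13.9, 28.3 and 19.9 CPM in KO 1 to KO 3, against 8.49, 5.40 and 13.8 CPM in WT 1 to WT 3. KO 1 and WT 3 were nearly level, and the log2 fold change was 1.16 (SE 0.39, adjusted p = 0.0601).

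In the spindle checkpoint (Bub1, Bub1b, Bub3, Mad2l1 and Ttk), 3 of 5 genes were called higher (18.5% of all genes tested). Bub3 (chr7:131560222-131571895, plus strand), the adaptor that brings Bub1 and BubR1 to kinetochores, had 81.3, 92.9 and 83.5 CPM in KO 1 to KO 3, against 68.1, 66.5 and 70.5 CPM in WT 1 to WT 3. The libraries of each genotype lay close together, without overlap between genotypes. Its log2 fold change was small, 0.33 (SE 0.066, adjusted p = 0.0111), and had the lowest adjusted p of the 50. Mad2l1, the Mad2 protein that holds back Cdc20, had 27.6, 43.2 and 29.3 CPM in KO 1 to KO 3, against 15.5, 12.4 and 23.1 CPM in WT 1 to WT 3, with a log2 fold change of 0.97 (SE 0.27, adjusted p = 0.0356). Ttk, the Mps1 kinase at the head of the checkpoint, had 6.39, 11.3 and 6.38 CPM in KO 1 to KO 3, against 2.95, 2.83 and 5.48 CPM in WT 1 to WT 3. KO 1 and KO 3 were level just above WT 3, and the log2 fold change was 1.10 (SE 0.34, adjusted p = 0.0468).

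Bub1 (chr2:127801122-127831865, minus strand), the checkpoint kinase that also marks centromeric histone H2A, had the largest log2 fold change of the 50 and just missed the threshold. It had 13.8, 26.1 and 17.8 CPM in KO 1 to KO 3, against 7.02, 4.19 and 12.3 CPM in WT 1 to WT 3. The lowest KO library was above the highest WT library by a small step, and the log2 fold change was 1.29 (SE 0.41, adjusted p = 0.0530).

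The chromosomal passenger complex corrects faulty attachments of kinetochores and later guides cytokinesis. Of its 4 genes, 2 were called higher (18.5% of all genes tested). Birc5, its survivin subunit, had 18.6, 28.3 and 23.3 CPM in KO 1 to KO 3, against 10.02, 5.62 and 15.2 CPM in WT 1 to WT 3. The genotypes did not overlap, and Birc5 was called higher with a log2 fold change of 1.18 (SE 0.35, adjusted p = 0.0422). Cdca8, the borealin subunit, had 20.4, 32.7 and 22.96 CPM in KO 1 to KO 3, against 13.1, 9.36 and 18.4 CPM in WT 1 to WT 3, and was called higher by the narrowest margin of the 13, with a log2 fold change of 0.90 (SE 0.28, adjusted p = 0.0498).

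Aurkb, the Aurora B kinase of the complex, had 16.3, 27.5 and 19.2 CPM in KO 1 to KO 3, against 10.7, 7.93 and 16.4 CPM in WT 1 to WT 3. KO 1 was just below WT 3, and the log2 fold change was 0.84 (SE 0.31, adjusted p = 0.0744). Incenp, the scaffold of the complex, was the most abundant of the 50 genes per length, with 26.1 CPM per kb in KO and 22.1 CPM per kb in WT. It had 98.3, 129 and 112 CPM in KO 1 to KO 3, against 90.9, 89.4 and 107 CPM in WT 1 to WT 3, with WT 3 above KO 1. Its log2 fold change of 0.24 (SE 0.11, adjusted p = 0.138) was among the smallest of the 50.

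Among the ubiquitin ligase and separase genes (Cdc20, Cdca3, Espl1, Pttg1 and Ube2c), 2 of 5 were called higher (18.5% of all genes). Ube2c, the ubiquitin-conjugating enzyme that works with the anaphase-promoting complex, had 17.5, 30.3 and 18.97 CPM in KO 1 to KO 3, against 9.62, 4.87 and 13.7 CPM in WT 1 to WT 3. WT 2 was lowest by far, and the log2 fold change was 1.24 (SE 0.39, adjusted p = 0.0493). Pttg1, which encodes securin, the inhibitor of separase, had 11.1, 12.8 and 12.7 CPM in KO 1 to KO 3, against 6.88, 5.25 and 9.41 CPM in WT 1 to WT 3. Its KO libraries lay closer together than those of the other genes of this group, and the log2 fold change was 0.76 (SE 0.20, adjusted p = 0.0257). Cdc20, the activator of the anaphase-promoting complex that the checkpoint restrains, had 16.4, 29.5 and 20.1 CPM in KO 1 to KO 3, against 10.3, 6.45 and 16.9 CPM in WT 1 to WT 3. KO 1 was just below WT 3, and Cdc20 was not called, with a log2 fold change of 0.97 (SE 0.37, adjusted p = 0.0862).

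None of the 7 kinesins, the motor proteins of the spindle (Kif11, Kif20a, Kif20b, Kif22, Kif23, Kif2c and Kif4) was called by edgeR, although all 7 had a positive log2 fold change, from 0.83 to 1.07. At an unadjusted p under 0.05, 5 were higher (24.9% of all genes tested). DESeq2 called 3 (17.5%) and limma-voom called 5 (18.7%). Kif23, a motor of the central spindle, had 24.96, 41.02 and 28.8 CPM in KO 1 to KO 3, against 14.2, 9.32 and 23.96 CPM in WT 1 to WT 3. KO 1 was above WT 3 by a narrow step, and the log2 fold change was 1.00 (SE 0.36, adjusted p = 0.0720). Kif2c, which takes apart microtubule ends at centromeres, had 11.3, 19.9 and 13.7 CPM in KO 1 to KO 3, against 6.94, 3.55 and 10.9 CPM in WT 1 to WT 3, with a log2 fold change of 1.07 (SE 0.41, adjusted p = 0.0840). Kif20a, which brings the passenger complex to the central spindle, averaged 28.6 ± 10.1 CPM in KO and 15.7 ± 7.92 CPM in WT (SD, n = 3 each) and its log2 fold change was 0.86 (SE 0.41, adjusted p = 0.141).

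At the centromere and kinetochore (Cenpa, Cenpe, Cenpf, Ndc80, Nuf2, Spc24 and Spc25), 2 of 7 genes were called higher (18.5% of all genes). Ndc80, Nuf2, Spc24 and Spc25 form the Ndc80 complex, the rod that ties the kinetochore to microtubules. Spc25 (chr2:69193895-69206194, minus strand) had 12.6, 19.4 and 12.9 CPM in KO 1 to KO 3, against 6.11, 4.76 and 8.65 CPM in WT 1 to WT 3. Every KO library was above every WT library with a clear gap, and the log2 fold change was 1.20 (SE 0.26, adjusted p = 0.0157). Spc24, its partner, had 6.99, 12.7 and 8.57 CPM in KO 1 to KO 3, against 3.99, 2.94 and 5.90 CPM in WT 1 to WT 3, with a log2 fold change of 1.14 (SE 0.31, adjusted p = 0.0314). Nuf2 and Ndc80, the other subunits, were just past the threshold, with adjusted p-values of 0.0505 and 0.0521 and log2 fold changes of 0.93 and 1.03. These values are given because the subunits form 1 complex, a choice made after they were seen.

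Cenpa (chr5:30666777-30674830, plus strand), the histone H3 variant that marks the centromere, was the exception among the 50. It had 59.3, 54.7 and 54.7 CPM in KO 1 to KO 3, against 65.3, 50.3 and 68.1 CPM in WT 1 to WT 3. The KO libraries lay inside the range of the WT libraries, KO 2 was not the highest KO library, and the log2 fold change was −0.12 (SE 0.11, adjusted p = 0.426). Its level per length was 9.60 CPM per kb in KO and 10.4 CPM per kb in WT, the seventh highest of the 50, and its lowest CPM in a library was far above the filter on low counts.

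Among genes of condensin and chromosome structure (Mki67, Ncapd2, Ncapg, Ncaph, Smc2, Smc4 and Top2a), 2 of 7 were called higher (18.5% of all genes). Smc2, an ATPase core subunit of the condensin complexes, had 48.1, 65.1 and 49.04 CPM in KO 1 to KO 3, against 30.8, 21.2 and 40.3 CPM in WT 1 to WT 3. The genotypes did not overlap and the log2 fold change was 0.81 (SE 0.24, adjusted p = 0.0430). Ncapg, a subunit of condensin I, had 11.3, 18.7 and 12.9 CPM in KO 1 to KO 3, against 5.84, 3.66 and 9.62 CPM in WT 1 to WT 3, with a log2 fold change of 1.16 (SE 0.36, adjusted p = 0.0495). Smc4, the other ATPase of the condensin core, had 72.2, 91.7 and 75.2 CPM in KO 1 to KO 3, against 64.8, 58.3 and 78.3 CPM in WT 1 to WT 3. WT 3 was above KO 1 and KO 3, and the log2 fold change was 0.25 (SE 0.13, adjusted p = 0.183).

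Top2a, the topoisomerase that untangles sister chromatids, had 94.5, 172 and 111 CPM in KO 1 to KO 3, against 56.3, 36.9 and 92.6 CPM in WT 1 to WT 3. KO 1 was just above WT 3 and the log2 fold change was 1.02 (SE 0.37, adjusted p = 0.0750). Mki67, which coats mitotic chromosomes and is the common marker of dividing cells, had 130.1, 200.2 and 139 CPM in KO 1 to KO 3, against 87.9, 60.3 and 148 CPM in WT 1 to WT 3. WT 3 lay above KO 1 and KO 3, and Mki67 was not called, with a log2 fold change of 0.67 (SE 0.34, adjusted p = 0.171).

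None of the 4 cytokinesis genes (Anln, Ect2, Prc1 and Racgap1) was called by edgeR. At an unadjusted p under 0.05, 3 were higher (24.9% of all genes tested). DESeq2 called 2 (17.5%) and limma-voom called 3 (18.7%). Anln, the scaffold of the contractile ring, had 24.7, 41.5 and 31.03 CPM in KO 1 to KO 3, against 13.4, 8.76 and 23.1 CPM in WT 1 to WT 3. The genotypes did not overlap, and the log2 fold change was 1.10 (SE 0.37, adjusted p = 0.0586). Racgap1, which with the Kif23 protein forms the centralspindlin complex, had 30.2, 54.8 and 39.04 CPM in KO 1 to KO 3, against 20.2, 15.3 and 32.1 CPM in WT 1 to WT 3. KO 1 was below WT 3 and the log2 fold change was 0.88 (SE 0.32, adjusted p = 0.0777).

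**Figure D4:**
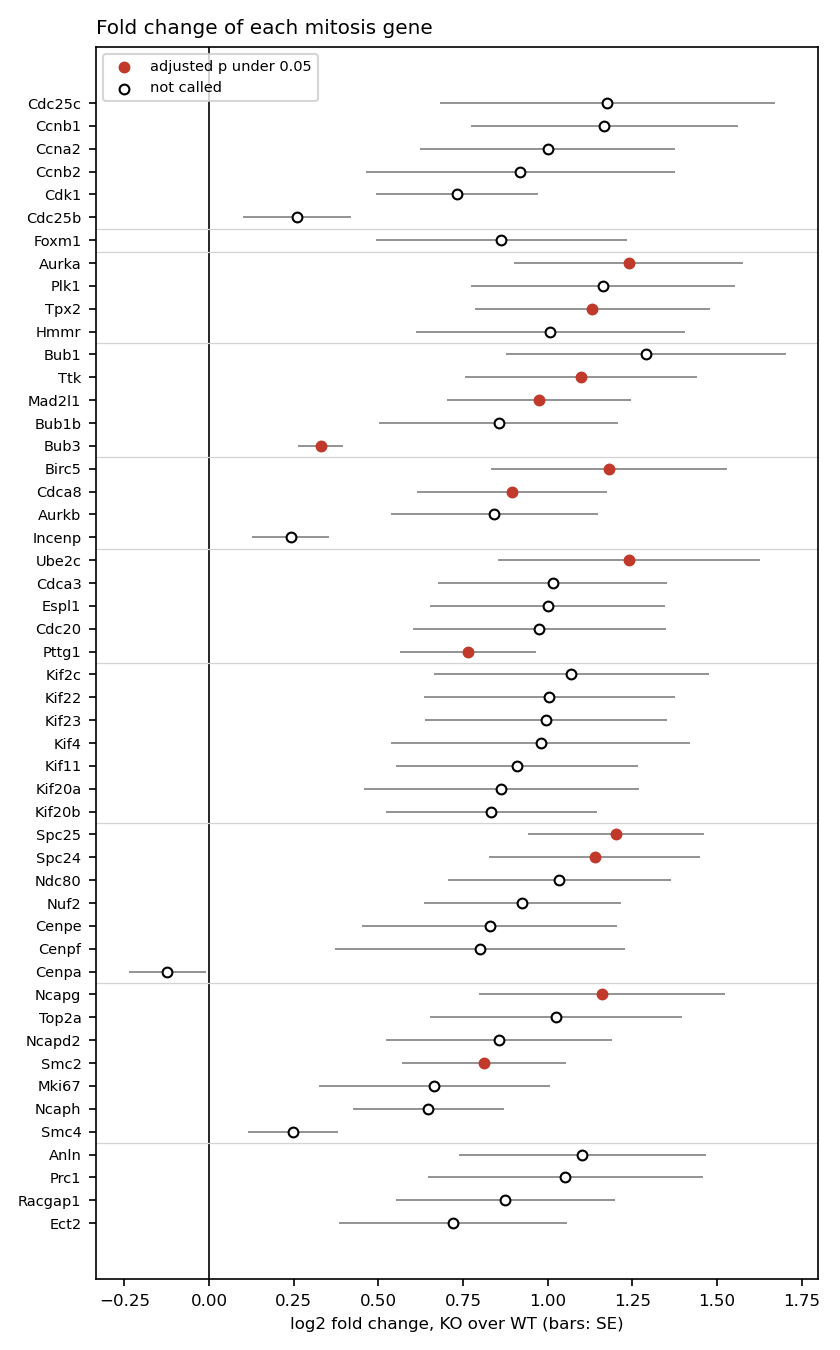
Log2 fold change of KO over WT for each of the 50 mitosis genes, grouped by role, with bars of 1 standard error (n = 3 each). The 13 called genes are filled, 45 genes lie at 0.6 or above, and Bub3, Incenp, Smc4 and Cdc25b lie between 0.24 and 0.33 with Cenpa at −0.12.

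The 50 genes fell into 45 with a log2 fold change of at least 0.6 and 5 below it, a split made after the values were seen. The 5 were Bub3, Incenp, Smc4, Cdc25b and Cenpa. Their standard errors, 0.066 to 0.16, were under the median of 0.35 over all 50. They were abundant for this list, all within the 10 highest in CPM per kb. CHR elements were present in the windows of Bub3, Cdc25b and Cenpa, and Incenp and Smc4 had no window.

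The count of calls rested on single libraries. Without WT 3, 45 of the 50 were called higher (15.4% of all genes) and the median log2 fold change was 1.35. Without WT 1, none was called by edgeR (7.93% of all genes), and the median log2 fold change was 0.91. Without WT 2, 3 were called higher (10.1%) and the median log2 fold change was 0.70. Cenpa was then called lower, with a log2 fold change of −0.25 and an adjusted p of 0.0493. The count was 6 without KO 1 (21.3% of all genes), 2 without KO 2 (10.9%) and 2 without KO 3 (10.1%). With both KO 2 and WT 3 left out, the libraries with the highest sums of each genotype, 36 were called (10.5%), and with both KO 2 and WT 2 left out, 1 was called (5.49%). The log2 fold change stayed positive for 49 genes in each of these fits. Spc25 and Bub3 were each called in 5 of the 6 fits that left out 1 library, the exception being WT 1, where their adjusted p-values were 0.0629 and 0.0501.

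The count also differed between tests. Beside the 31 of DESeq2 and the 35 of limma-voom, limma-voom with weights for library quality called 43 of the 50 higher (25.8% of all genes). All 13 genes called by edgeR were among those of each of these tests. The count was 12 with RLE scaling (18.1%), 10 with plain library totals (19.1%), 17 with a stricter filter (19.8%), 3 with no filter (9.56%) and 21 on the authors' normalized signal (15.0%). The median log2 fold change of the 50 was between 0.96 and 1.02 under these 8 settings.

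**Figure D5:**
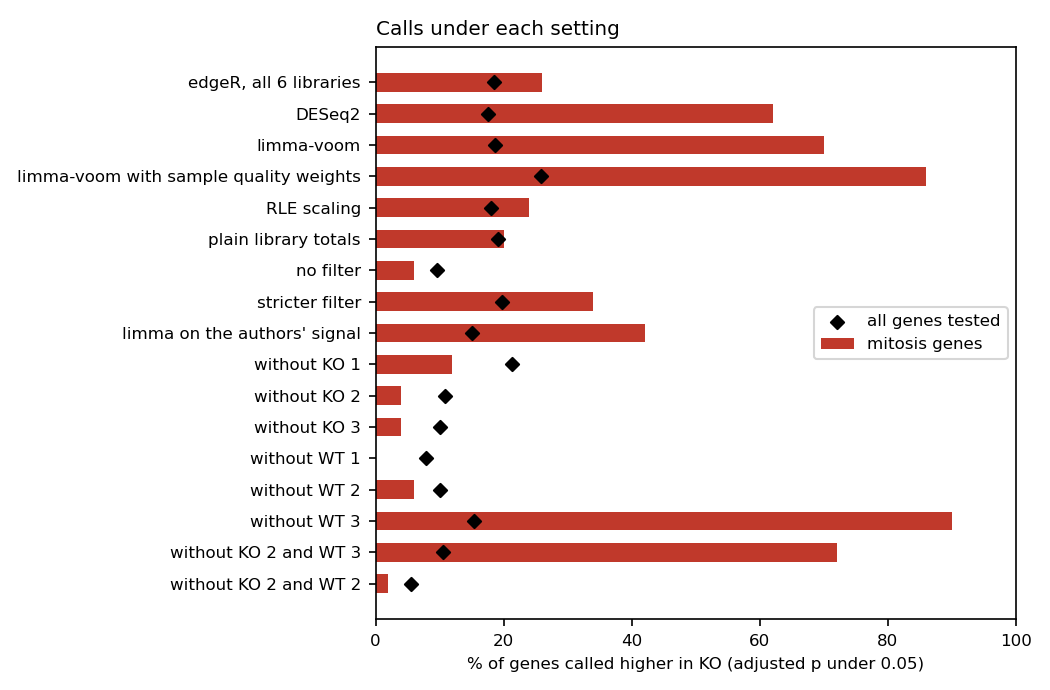
Percent of genes called higher in KO at an adjusted p under 0.05 under each setting, with bars for the 50 mitosis genes and diamonds for all genes tested. The bars run from 0% without WT 1 to 90.0% without WT 3, while the diamonds stay between 5.49 and 25.8%.

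The list of 72 further mitotic genes held other kinetochore, spindle and chromosome proteins. Of these, 33 were called higher and 1 lower (18.5 and 16.8% of all genes tested), with a median log2 fold change of 0.91. Ska1, a kinetochore protein, had 3.41, 4.46 and 3.85 CPM in KO 1 to KO 3, against 1.71, 0.906 and 1.93 CPM in WT 1 to WT 3 and a log2 fold change of 1.35 (SE 0.28, adjusted p = 0.0117). Zwilch, a subunit of the kinetochore RZZ complex, and Pbk, a mitotic kinase, had log2 fold changes of 1.35 (SE 0.35, adjusted p = 0.0283) and 1.34 (SE 0.35, adjusted p = 0.0295). Ncapg2, a subunit of condensin II, ran the other way, with 106, 71.4 and 106 CPM in KO 1 to KO 3, against 194, 176 and 175 CPM in WT 1 to WT 3 and a log2 fold change of −0.94 (SE 0.15, adjusted p = 0.00767). The order of the libraries described above for 48 of the 50 genes held for 47 of the 72 (65.3%). Without WT 3, 55 of the 72 were called higher (15.4% of all genes). The count was 7 without KO 2 (10.9%), 11 without KO 3 (10.1%), 4 without WT 1 (7.93%) and 10 without WT 2 (10.1%).

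Genes of DNA replication copy the genome before mitosis. Of 48, 43 were called higher (18.5% of all genes tested), with a median log2 fold change of 0.93 and a median SD within genotype of 0.31. Orc1, the large subunit of the origin recognition complex, had 2.63, 3.71 and 2.53 CPM in KO 1 to KO 3, against 1.10, 0.642 and 1.03 CPM in WT 1 to WT 3, with a log2 fold change of 1.66 (SE 0.27, adjusted p = 0.00693). Rrm2, a ribonucleotide reductase subunit, and Tyms, thymidylate synthase, had log2 fold changes of 1.38 (SE 0.36, adjusted p = 0.0289) and 1.33 (SE 0.28, adjusted p = 0.0155). The sums over the 48 genes were 2057, 3010 and 2358 CPM in KO 1 to KO 3 and 1295, 1158 and 1624 CPM in WT 1 to WT 3, so that the genotypes did not overlap. The mitosis sum over the replication sum was 0.669, 0.710 and 0.658 in KO 1 to KO 3 and 0.736, 0.615 and 0.847 in WT 1 to WT 3. On this ratio the genotypes overlapped, and the WT libraries spanned the wider range. Of the replication genes, 25 were called higher without KO 2 (10.9% of all genes) and 24 without KO 3 (10.1%). The count was 11 without WT 1 (7.93%) and 27 without WT 2 (10.1%).

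The 15 genes listed for the G1/S step were cyclins, E2F factors, Cdk2, Cdk4, Cdk6, Tfdp1 and Myc. Of these, 8 were called higher and 2 lower (18.5 and 16.8% of all genes tested), with a median log2 fold change of 0.44. Ccne1 and Ccne2, the E-type cyclins that start replication, had log2 fold changes of 1.39 (SE 0.21, adjusted p = 0.00620) and 1.37 (SE 0.38, adjusted p = 0.0357). Ccnd1, a cyclin that passes growth factor signals to the cycle, had 272, 405 and 329 CPM in KO 1 to KO 3, against 141, 129 and 179.9 CPM in WT 1 to WT 3, with a log2 fold change of 1.16 (SE 0.18, adjusted p = 0.00721). Its relatives Ccnd2 and Ccnd3 were called lower, with log2 fold changes of −0.76 (SE 0.19, adjusted p = 0.0250) and −0.38 (SE 0.055, adjusted p = 0.00586). The counts were 5 higher and 1 lower without each of KO 2 (10.9% of all genes higher), KO 3 (10.1%) and WT 2 (10.1%). Without WT 1 they were 4 higher and 1 lower (7.93% of all genes higher).

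The 12 genes listed with DREAM and MuvB, the complexes that act at CHR elements, had a median log2 fold change of 0.11. Of these, 3 were called higher and 2 lower. Both counts were near the shares of all genes tested, 18.5% higher and 16.8% lower. Mybl2, the B-MYB activator, had 8.71, 16.6 and 11.5 CPM in KO 1 to KO 3, against 5.22, 3.51 and 7.03 CPM in WT 1 to WT 3, with a log2 fold change of 1.22 (SE 0.32, adjusted p = 0.0289). Rbl1 (p107) and E2f4 were called higher, with log2 fold changes of 0.52 (SE 0.15, adjusted p = 0.0345) and 0.18 (SE 0.052, adjusted p = 0.0351). Rbl2 (p130), the pocket protein of DREAM in resting cells, had 63.3, 54.9 and 57.6 CPM in KO 1 to KO 3, against 75.1, 76.3 and 77.4 CPM in WT 1 to WT 3, with a log2 fold change of −0.38 (SE 0.065, adjusted p = 0.00736). Rb1, listed with these genes but not a subunit of either complex, was called lower, with a log2 fold change of −0.35 (SE 0.094, adjusted p = 0.0267). Without KO 2, KO 3, WT 1 or WT 2, 0 of the 12 were called higher by edgeR and 1 lower. Over all genes, 10.9, 10.1, 7.93 and 10.1% were called higher in these fits. Without KO 1, 3 of the 12 were called lower.

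Of 15 inhibitors of cyclin-dependent kinases and targets of p53, 3 were called higher and 5 lower, with a median of −0.04. The count higher was near the 18.5% of all genes tested, and 16.8% of all genes were called lower. Cdkn1b, the p27 inhibitor, had 58.2, 41.7 and 47.3 CPM in KO 1 to KO 3, against 75.5, 75.7 and 74.8 CPM in WT 1 to WT 3, with a log2 fold change of −0.62 (SE 0.11, adjusted p = 0.00920). Btg2 and Sesn1, both p53 targets, were called lower, with log2 fold changes of −0.79 (SE 0.20, adjusted p = 0.0265) and −0.75 (SE 0.18, adjusted p = 0.0209). Cdkn2a and Cdkn2b, the INK4 and ARF locus, were low in both genotypes and called higher. Cdkn2a had 1.93, 2.03 and 1.96 CPM in KO 1 to KO 3, against 0.375, 0.189 and 0.517 CPM in WT 1 to WT 3, with a log2 fold change of 2.42 (SE 0.32, adjusted p = 0.00522), and the log2 fold change of Cdkn2b was 1.59 (SE 0.25, adjusted p = 0.00655). Mdm2 was called higher with a log2 fold change of 0.25 (SE 0.068, adjusted p = 0.0290). The lower calls numbered 2 without KO 2 and 1 without each of KO 3, WT 1 and WT 2. The higher calls numbered 5 without KO 1 (21.3% of all genes) and 2 without each of the other libraries (7.93 to 15.4%).

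Subunits and partners of the anaphase-promoting complex had small fold changes. Of 17, 3 were called higher (17.6%, near the 18.5% of all genes tested), with a median log2 fold change of 0.09. Ube2s, which lengthens its ubiquitin chains, had a log2 fold change of 0.61 (SE 0.13, adjusted p = 0.0158), and the subunits Anapc5 and Anapc11 had 0.29 (SE 0.074, adjusted p = 0.0226) and 0.29 (SE 0.051, adjusted p = 0.00805). Of 13 cohesin genes, 2 were called higher (15.4%, near the 18.5% of all genes) and 5 lower (16.8% of all genes), with a median of −0.03. Esco2 and Cdca5 (sororin), which establish cohesion during replication, had log2 fold changes of 1.13 (SE 0.26, adjusted p = 0.0160) and 0.93 (SE 0.29, adjusted p = 0.0459). Nipbl and Mau2, the cohesin loader, had −0.38 (SE 0.11, adjusted p = 0.0376) and −0.28 (SE 0.069, adjusted p = 0.0204), and Esco1 had −0.31 (SE 0.076, adjusted p = 0.0207). None of the cohesin genes was called lower by edgeR without KO 2, KO 3, WT 1 or WT 2, and 2 were without WT 3. Without KO 2, KO 3 or WT 2, 1 was called higher (10.9, 10.1 and 10.1% of all genes). Without WT 1, 0 were called higher (7.93% of all genes).

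Depth was 28193880 to 30122204 counts in KO libraries and 27170943 to 37113689 counts in WT libraries. Cdh11 had 6, 4 and 5 counts in KO 1 to KO 3 and 6, 11 and 6 counts in WT 1 to WT 3 (exact permutation test, two-sided, p = 0.5, with 0.1 the smallest that 3 against 3 allow), so its transcript does not check the genotype labels at this depth. The 10 macrophage markers summed to 20461 to 26341 CPM in KO and 33023 to 35715 CPM in WT. Among them, 1 was called higher (Cd68) and 5 lower (Csf1r, Lyz2, Mrc1, Cd14 and Cx3cr1), against 18.5 and 16.8% of all genes tested. KO 2, the highest library for the mitosis genes, had the lowest macrophage sum, and WT 2, the lowest for the mitosis genes, the highest. Lyz2 made up most of these sums, with 13042 CPM in KO 2 and 24782 CPM in WT 2, and single markers differed. Among KO libraries, KO 2 was lowest for Lyz2, Csf1r, Mertk and Cx3cr1, highest for Itgam and Cd14, and between for the others. Among WT libraries, WT 2 was highest for Lyz2, Csf1r, Adgre1, Mertk, Fcgr1 and Cx3cr1, lowest for Cd14, and between for the others. Neutrophil markers summed to 68.7 to 144 CPM in KO and 66.7 to 134 CPM in WT. Of 11 tested, 1 was called lower (Mmp8), against 16.8% of all genes tested. Progenitor markers summed to 7.69 to 9.13 CPM in KO and 5.14 to 7.28 CPM in WT. Of 6 tested, only Kit was called higher (18.5% of all genes tested). Megakaryocyte markers summed to 225 to 310 CPM in KO and 208 to 266 CPM in WT. Of 5 tested, 3 were called higher (18.5% of all genes tested). Lymphocyte markers summed to 59.8 to 94.4 CPM in KO and 124 to 149 CPM in WT. Of 3 tested, 1 was called lower (Ighm), against 16.8% of all genes tested. Mast cell and basophil markers summed to 0.562, 2.54 and 0.897 CPM in KO 1 to KO 3 and 0.134, 0.113 and 0 CPM in WT 1 to WT 3. These levels were low, none of the 7 genes passed the filter on low counts, and the genotypes did not overlap, with KO 2 highest as for the mitosis genes. Erythroid, fibroblast and dendritic markers each summed to under 6 CPM in every library. Of the markers, 3 erythroid, 2 fibroblast, 2 mast cell or basophil and 1 lymphocyte gene had 0 counts in all 6. The part of these markers in the mitosis gene levels was not tested.

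Some of the 50 genes share bases with other genes. In GENCODE M21, 12 share exon bases with a gene on the opposite strand, of which Kif20a with Cdc23 (29.3% of its exon bases), Ube2c with Tnnc2 (22.8%), Kif4 with Pdzd11 (15.1%), Ncapg with Lcorl (13.4%), Cdc25c with Gm3550 (12.7%), Ccna2 with Exosc9 (12.5%) and Prc1 with Rccd1 (11.1%) share over 10%. Ccnb1, Ccnb2, Kif22 and Kif4 each have a named pseudogene. The libraries keep strand, but no source used here says whether the counting did, and reads of these partners may have been shared with these genes.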

How the data were processed

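Total RNA of macrophages grown from marrow was sequenced with directional libraries, per the labels' protocols. The submitters' processing notes name mm10 as the build, with DRAGEN and DESeq2 as tools; neither the annotation nor the strand setting of the counting is given in the sources used here. The authors deposited whole-number counts per Ensembl gene for 42256 genes, 21695 of them with a count, and a table of normalized signal, in which each count has been divided by a factor of its own gene and library. Symbols (42170 matched), coordinates and overlaps come from GENCODE M21 on GRCm38, the assembly also called mm10.

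Counts were filtered with filterByExpr (minimum count 10), TMM-scaled and given the robust quasi-likelihood test of edgeR 4.0.16 in R 4.3.3, KO against WT, 3 libraries each, with no covariates and Benjamini-Hochberg adjustment over 12862 genes. The biological coefficient of variation was 0.121. Groups were taken from the genotype label, and replicate numbers follow sample order. Alternatives were DESeq2 1.42.0, limma 3.58.1 (voom, voom with quality weights, and log2 of the authors' deposited signal with a pseudocount of 1), other scalings and filters (the stricter one asks for 1 CPM in 3 libraries), and leaving out libraries. Of the tests, only that of edgeR was tried on simulated counts, which were drawn for each gene independently, unlike the mitosis genes that vary together.

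CPM use TMM-scaled totals, and CPM per kb divides them by the exon length of the gene. For deviations from the mean of the libraries, 0.0167 CPM was added before the log2. Named genes are the called genes, in each role the genes with the smallest p, the largest fold change and the highest level per length, and 8 genes fixed by name; in the compared lists they are up to 3 called genes in each direction. Members and lists were chosen with earlier results of these data known. Promoter windows are those of RefSeq on GRCm38.p6; the 20 bases after the start were found in a GENCODE transcript of the same gene for 26 of 41 genes, and their reverse complement for 0. The E2F motif was chosen after the other motifs had been counted.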

Additional observations from a re-analysis of the deposited data

How the results depend on the processing

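No paired analysis was possible because the labels give the libraries of the genotypes no shared replicate numbers. In 48 of the 50 mitosis genes the 3 libraries of each genotype stood in the same order, so these genes are not independent of each other, and 1 library can decide how many are called. Over the fits that left out 1 library, the count called higher ran from 0 to 45 of the 50, and the count called lower from 0 to 1. The same fits gave 1037 to 2791 higher and 942 to 2665 lower calls over all genes. They gave 4 to 55 higher and 1 lower of the other mitotic genes, 11 to 43 higher and 0 lower of the replication genes, 4 to 10 higher and 1 to 2 lower of the G1/S genes, 0 to 3 higher and 1 to 3 lower of the DREAM genes, 2 to 5 higher and 1 to 5 lower of the inhibitors and p53 targets, 2 to 4 higher and 0 lower of the anaphase-promoting complex, and 0 to 2 higher and 0 to 5 lower of cohesin.

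Of the 50, 31 were called higher by DESeq2, 35 by limma-voom, 43 by limma-voom with quality weights, 3 without a filter, 21 on the signal, 36 without KO 2 and WT 3, and 1 without KO 2 and WT 2. The pairs of libraries were chosen after seeing the data. Without KO 2 and WT 3, 1359 genes were higher and 1038 lower; 1 cohesin gene was higher and 2 lower, 1 G1/S gene and 1 DREAM gene were lower, and 3 inhibitors and p53 targets were lower. Without KO 2 and WT 2, 710 genes were higher and 668 lower, with 6 other mitotic, 14 replication, 3 G1/S, 1 anaphase-promoting complex, 0 DREAM and 0 cohesin genes higher, and 1 G1/S, 1 DREAM, 1 inhibitor or p53 target and 0 cohesin genes lower. Of the 72 other mitotic genes, DESeq2 called 51 higher (17.5% of all genes), quality weights 55 (25.8%) and no filter 20 (9.56%). Quality weights also gave 5 higher genes each in the anaphase-promoting complex (of 17), DREAM (of 12) and the inhibitors (of 15), against 25.8% of all genes. With no filter, 20 of 48 replication, 1 of 13 cohesin and 0 of 12 DREAM genes were higher (9.56% of all genes), and 3 inhibitors lower. Plain totals gave 3 of 13 cohesin genes lower. On the signal, 1 cohesin and 1 DREAM gene were higher (15.0% of all genes), and 3 cohesin, 1 G1/S and 1 DREAM gene were lower. For named mitosis genes, 512 single values under these settings comprised 359 on the same side of the threshold, 81 no longer called and 72 newly called; none changed sign while called. The causes of these shifts were not tested. Cdc25c, with 11 counts in its lowest library, is the gene most limited by depth.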
